A study of Drosophila melanogaster with 4 samples.

Results

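Chromatin carrying trimethylated lysine 79 of histone H3 (H3K79me3) was mapped in *Drosophila melanogaster* heads, and the regions described here are the enriched regions, called clusters, in the centromere-side 4 Mb of the chromosome arms 2L, 3L and 3R. A cluster belongs to the set when its midpoint lies in the last 4 Mb of 2L or 3L or in the first 4 Mb of 3R, by the arm lengths in the file headers, whatever its score or width. Of the clusters in all sequences, 486 of 6264 in ChIP replicate 1, 504 of 6470 in ChIP replicate 2 and 531 of 6943 in the list for the replicate set (the combined list) met this rule. In replicate 1 they were 175 on 2L, 127 on 3L and 184 on 3R, and in replicate 2 they were 167, 135 and 202 in the same order. The rest of the same arms held 3267 clusters in replicate 1 and 3383 in replicate 2.

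The series compares 2 ChIP libraries with 2 input libraries from nuclei of heads of wild-type Oregon-R flies, labelled as mixed adults and kept in population cages. No mutant, transgene or treatment enters, and the heads were sieved from whole adults and hold many cell types. Besides its position, a cluster carries a score from the authors on an unstated scale, which serves here only for ranks within a list. Nothing in the labels ties the libraries to different batches of flies, so their spread may be technical. Depth is unknown from these lists, and the head tissue could not be checked against marker genes because the lists name no genes.

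Methylation of this lysine is set by Dot1, named grappa in flies, and unlike most histone lysine methylation it lies on the globular core of H3 rather than on its tail. It is commonly found over the bodies of transcribed genes. The chromatin around fly centromeres is largely heterochromatin, rich in repeats and poor in genes, packed with HP1 and marked by methylation of lysine 9 of H3, although some essential genes lie and are transcribed in it. The arm sequences of FlyBase release 5 run into this pericentric chromatin at their centromere side, and sequences such as 3LHet, further towards the centromere, were assembled apart from the arms. Distances below therefore start where the arm sequence stops, which is not the centromere itself.

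H3K79me3 clusters covered less of the centromere-side 4 Mb than of the rest of each arm. On 2L they covered 20.9% of the 4 Mb in replicate 1 and 21.0% in replicate 2, against 27.3% and 27.5% of the rest of the arm. On 3L they covered 19.0% and 20.1% of the 4 Mb, against 29.1% and 30.0% of the rest. On 3R they covered 24.97% and 25.08%, against 30.8% and 31.7% of the rest. The mean difference was -6.41 ± 0.021 percentage points on 2L, -10.0 ± 0.13 on 3L and -6.19 ± 0.55 on 3R (SD, n = 2), so on each arm it exceeded the spread between the libraries. On 3R the sign depended on the length taken: over the 2 Mb next to the end the difference was 2.41 points. With 2 libraries an exact paired test cannot give a two-sided p below 0.5. Differences are therefore set here against the spread between the libraries only. That spread does not measure how coverage varies along an arm. In the rest of the arm, the mean coverage of 250 kb steps ran from 3.22% to 54.0% on 2L. It ran from 0% to 61.4% on 3L and from 0% to 72.3% on 3R. Whether other stretches of 4 Mb were covered as little was not tested.

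**Figure D1:**
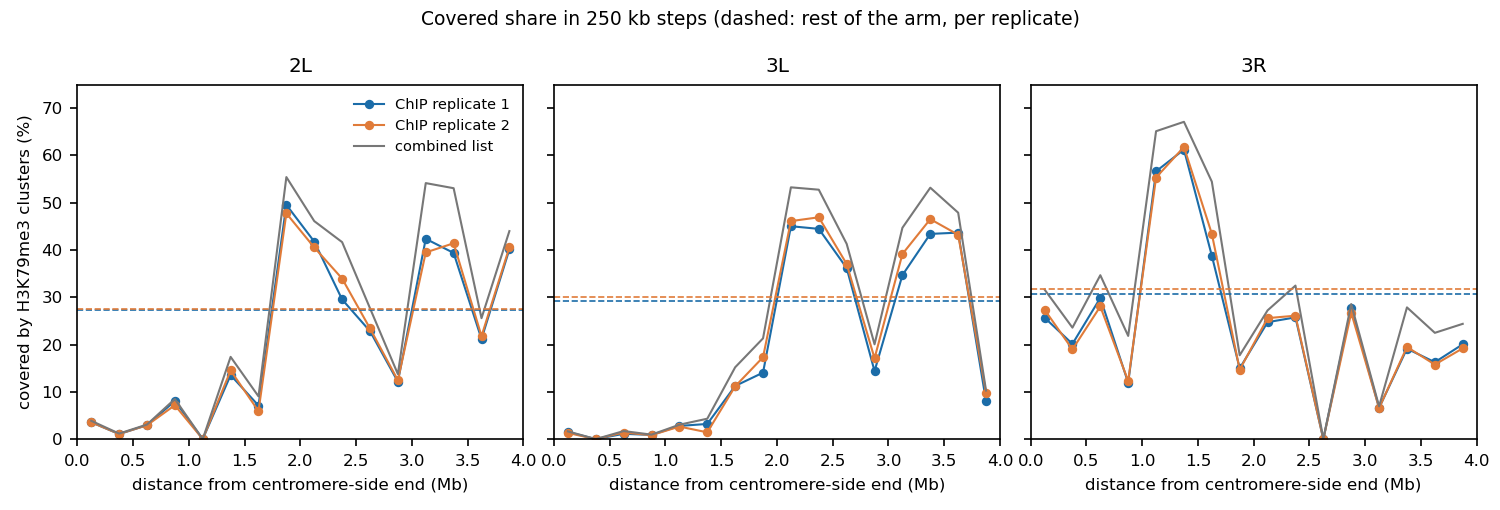
Share of each 250 kb step covered by H3K79me3 clusters (y axis, %) by distance from the centromere-side end of the arm sequence (x axis, Mb) on 2L, 3L and 3R. Points are the 2 ChIP replicates, the grey line is the combined list, and dashed lines give the covered share of the rest of the arm in each replicate. Coverage stays low over more than 1 Mb on 2L and 3L, while on 3R it is 25.7% and 27.4% in the step at the end itself.

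On 2L the sparse stretch reached to 1750 kb from the end. In the first 4 steps of 250 kb, coverage was 3.56%, 1.06%, 2.94% and 8.05% in replicate 1, and 3.56%, 1.09%, 2.93% and 7.16% in replicate 2. The step from 1000 to 1250 kb held no cluster in any list. It was followed by 13.5% and 14.5% from 1250 to 1500 kb, and by 7.09% and 5.92% from 1500 to 1750 kb. The next step, from 1750 to 2000 kb (21011545 to 21261544 on 2L), held 49.5% in replicate 1 and 47.7% in replicate 2, the highest of the 16 steps. It was also the first step to reach the share of the rest of the arm, and the jump into it, 42.5 and 41.8 points, was the largest between neighbouring steps. Only 5 of the 76 full steps in the rest of 2L had a higher mean coverage.

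Beyond that jump 2L alternated between dense and sparse steps. Coverage was 41.8% and 40.5% from 2000 to 2250 kb and 29.5% and 33.9% from 2250 to 2500 kb, but 12.1% and 12.4% from 2750 to 3000 kb. The outermost step, from 3750 to 4000 kb, held 40.1% and 40.6%. In both replicates 6 of the 16 steps reached the share of the rest of the arm, all of them beyond 1750 kb.

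On 3L the sparse stretch was longer and emptier. The first 4 steps were covered to 1.50%, 0%, 1.12% and 0.879% in replicate 1, and to 1.29%, 0%, 1.39% and 0.831% in replicate 2. Coverage was 2.78% and 2.65% from 1000 to 1250 kb, 3.20% and 1.43% from 1250 to 1500 kb, 11.2% in both replicates from 1500 to 1750 kb, and 14.1% and 17.3% from 1750 to 2000 kb. The last pair of these steps stood above all the inner ones in both libraries. From 2000 to 2250 kb (22293558 to 22543557 on 3L) coverage was 45.0% and 46.1%, the first step at or above the rest of the arm, and the jump into it was 31.0 and 28.8 points.

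The outer 2 Mb of the window on 3L held 33.7% and 35.7%, more than the 29.1% and 30.0% of the rest of the arm. In both replicates 6 of the 16 steps on 3L reached the share of the rest, all of them in the outer 2 Mb. The share was 44.5% and 46.9% from 2250 to 2500 kb and 43.4% and 46.5% from 3250 to 3500 kb. It was 14.4% and 17.1% from 2750 to 3000 kb, and 8.01% and 9.75% in the outermost step. Of the 16 steps, 7 had a mean coverage under 10%, against 6 of the 82 full steps in the rest of 3L. On 2L this was so for 6 of 16, against 11 of 76, and on 3R for 2 of 16, against 5 of 95.

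3R followed another course. Its first 3 steps were covered to 25.7%, 20.1% and 29.9% in replicate 1 and to 27.4%, 19.0% and 28.1% in replicate 2, and the fourth to 11.9% and 12.3%. All of these steps lay below the share of the rest of the arm. The innermost 1 Mb held 21.9% and 21.7%, against 30.8% and 31.7% of the rest. The mean difference was -9.43 ± 0.79 points (SD, n = 2). From 1000 to 1250 kb coverage was 56.6% and 55.3%, and from 1250 to 1500 kb it was 61.2% and 61.8%, the highest value in any of the 48 steps on the 3 arms. Only 4 of the 95 full steps in the rest of 3R had a higher mean. Coverage was 38.8% and 43.4% from 1500 to 1750 kb, and no step further out reached the share of the rest of the arm.

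The sparsest part of the 3R window lay on its outer side. The step from 2500 to 2750 kb held no cluster in any list, the step from 3000 to 3250 kb was covered to 6.60% and 6.58%, and the last 3 steps to between 15.8% and 20.0%. A contrast chosen after these values had been seen sets the inner 2 Mb against the outer 2 Mb. On 3R the inner 2 Mb held 32.4% and 32.7%, against 17.5% and 17.4% of the outer 2 Mb. On 2L the inner 2 Mb held 10.7% and 10.4%, against 31.2% and 31.7%, and on 3L 4.35% and 4.51%, against 33.7% and 35.7%. The difference was therefore positive on 3R, 15.1 ± 0.31 points, and negative on 2L, -20.9 ± 0.63 points, and on 3L, -30.3 ± 1.3 points (SD, n = 2).

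Across the 16 steps of an arm, Spearman's rho between distance and coverage was 0.70 and 0.73 on 2L, 0.73 and 0.74 on 3L, and -0.40 and -0.39 on 3R in replicates 1 and 2. These are descriptions over neighbouring steps of the same library, which are not independent. The replicates differed by at most 4.42 points in any step of 2L, 4.47 points on 3L and 4.63 points on 3R, and by a median of 0.735, 0.966 and 0.705 points. The jumps described above exceed these differences.

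**Figure D2:**
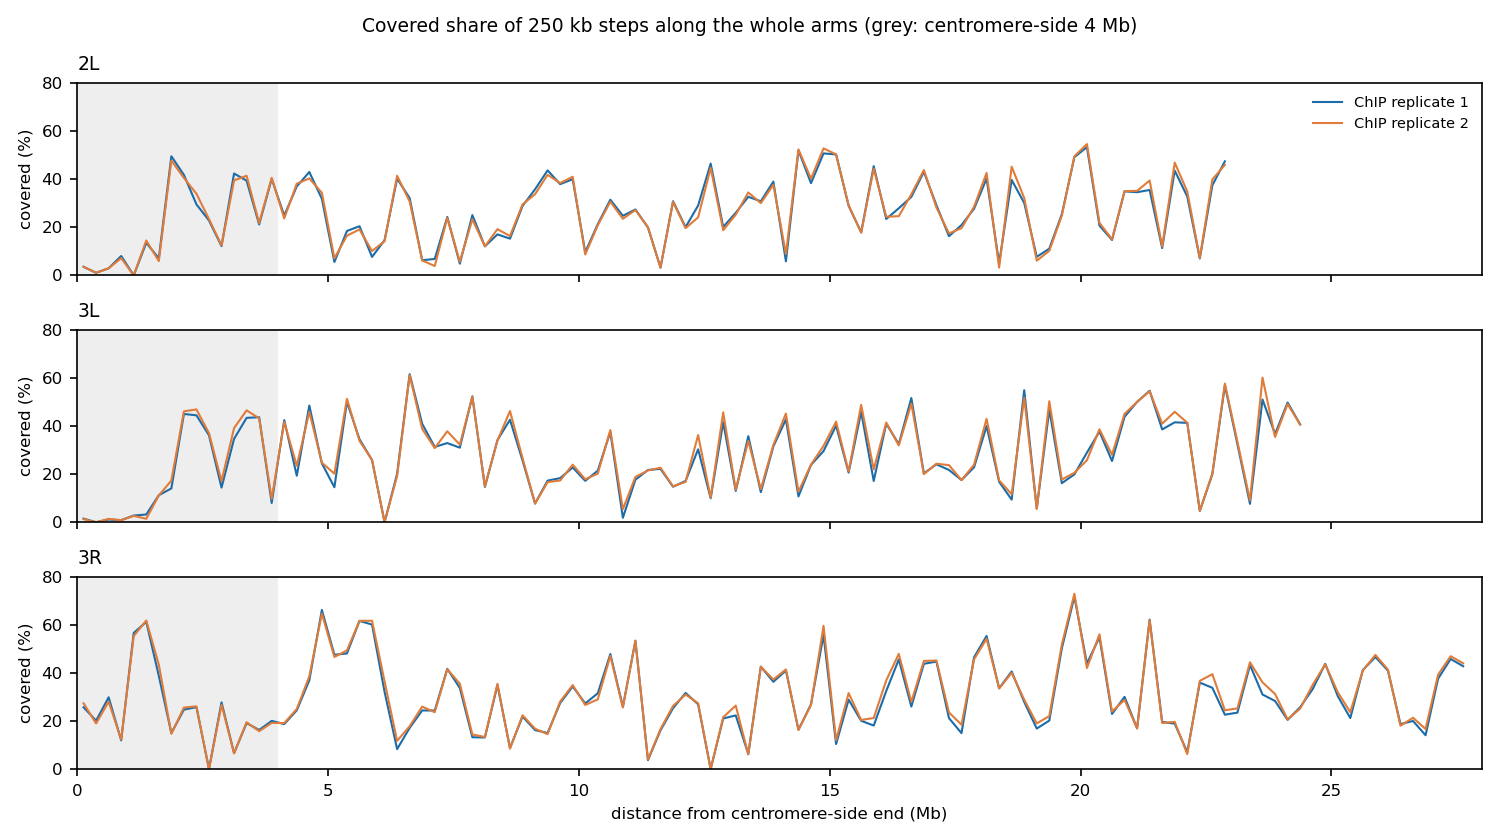
Covered share of 250 kb steps (y axis, %) along the full length of 2L, 3L and 3R (x axis, distance from the centromere-side end in Mb) in the 2 ChIP replicates, with the centromere-side 4 Mb shaded grey. The run of low steps at the inner end of 2L and 3L is set against a body of the arm with a median step of 27.7% and 27.1%. On 3R (median 29.4%) the steps of the innermost 1 Mb also lie below the median, but with a mean coverage of 12.1% or more.

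Next to the end of 2L and 3L there were fewer clusters, and their mean width was lower. In the innermost 1 Mb of 2L there were 15 clusters in replicate 1 and 14 in replicate 2, or 15 and 14 per Mb, against 53.3 and 51.0 per Mb in the 3 Mb next to it. The mean width there was 2601 and 2633 bases, against 4992 and 5257 bases. On the log2 scale the number per Mb differed by -1.83 and -1.87 and the mean width by -0.940 and -0.997. Coverage is the product of both, and its log2 difference was -2.77 and -2.86. On 3L there were 3 clusters in each replicate in the innermost 1 Mb, against 41.3 and 44.0 per Mb in the next 3 Mb. The mean width was 2909 and 2930 bases, against 6070 and 6029 bases. The log2 difference was -3.78 and -3.87 in number and -1.06 and -1.04 in mean width. Only 3 clusters a library stand behind the inner mean, and the outer mean includes a cluster of 100200 and 105693 bases. The median width on 3L was 2790 and 3235 bases, against 3743.5 and 3394.5 bases. Its mean difference, -556.5 ± 561.4 bases (SD, n = 2), did not exceed the spread between the libraries. In the combined list the 3L median was higher next to the end, by 836.5 bases. On 2L the median was lower there in both replicates and in the combined list.

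On 3R the number of clusters hardly differed between these parts as wholes, but it varied within the outer part. There it was 82 and 84 per Mb from 1 to 2 Mb, 23 and 29 from 2 to 3 Mb, and 34 and 39 from 3 to 4 Mb. The innermost 1 Mb had 45 and 50 clusters, against 46.3 and 50.7 per Mb in the next 3 Mb, a log2 difference of -0.04 and -0.02. The mean width was 4866 and 4334 bases, against 5610 and 5175 bases, a log2 difference of -0.21 and -0.26. The median width was also lower next to the end on 3R, with 2976 and 2618 bases against 4049 and 3413.5 bases. The combined list differed here: it had 67 clusters per Mb in the innermost 1 Mb of 3R, against 47.3 per Mb in the next 3 Mb, a higher number next to the end.

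Over the whole 4 Mb the width differed less from that of the rest of the arm, and its direction depended on the arm and on the measure. The mean width was 4787 and 5037 bases on 2L, against 5380 and 5332 in the rest, and 5428 and 4967 bases on 3R, against 5819 and 5730. On 3L it was 5996 and 5960 bases, against 5770 and 5695. The mean difference was -444 ± 211 bases on 2L, -577 ± 263 on 3R and 245 ± 28 on 3L (SD, n = 2). Each was larger than the spread between the libraries. The 3L mean includes a cluster of 100200 bases in replicate 1 and 105693 in replicate 2, among 127 and 135 clusters. The 3L mean without that cluster was not computed. Medians did not separate the window on 2L and 3R. On 2L the median cluster measured 3053 bases in replicate 1 and 3547 in replicate 2, against 3438.5 and 3376 in the rest, so the replicates differed in sign. On 3R it was 3872 and 3177 bases, against 3600.5 and 3595, again with opposite signs. On 3L it was 3710 and 3385 bases, against 3816 and 3633, a mean difference of -177 ± 100.4 bases (SD, n = 2), opposite in sign to that of the mean width. The number of clusters per Mb was lower in the window on all 3 arms and in both replicates, with a mean difference of -8.40 ± 1.9 on 2L, -18.8 ± 0.17 on 3L and -5.82 ± 1.5 on 3R (SD, n = 2). On 3R this sign also turned over the 2 Mb next to the end, where the difference was 12.9 per Mb.

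**Figure D3:**
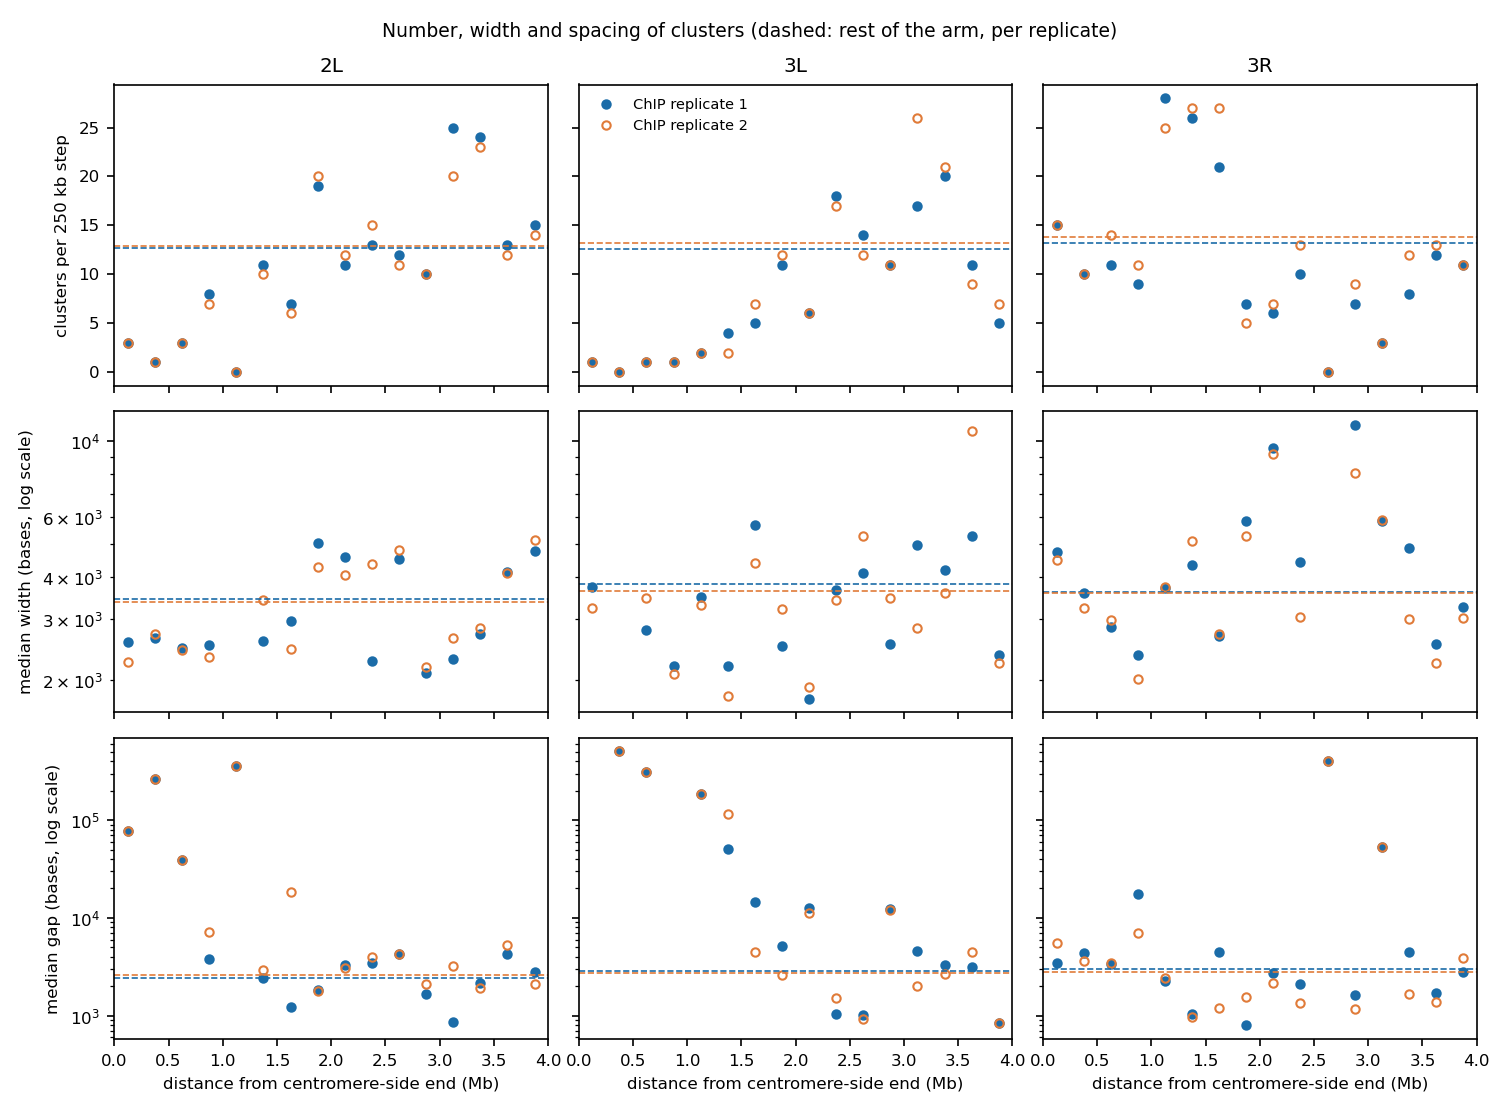
Number of clusters (top row), median width in bases (middle row, log axis) and median gap in bases (bottom row, log axis) in each 250 kb step, by distance from the centromere-side end (x axis, Mb) for 2L, 3L and 3R. Filled points are ChIP replicate 1, open points ChIP replicate 2, and dashed lines the rest of the arm (its number scaled to 250 kb). On 2L and 3L the steps within 1250 kb of the end hold between 0 and 8 clusters each, and the longest gap of the window is centred there. The step with no cluster lies from 1000 to 1250 kb on 2L and from 250 to 500 kb on 3L.

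Wide clusters began at different distances. The nearest cluster wider than 5 kb lay 1258 kb from the end on 2L in both replicates, 1669 kb on 3L in both, and 46.0 kb on 3R in both. The nearest wider than 10 kb lay at 1761 kb on 2L, at 2142 kb on 3L, and on 3R at 255.8 kb in replicate 1 and 221.5 kb in replicate 2. In the combined list these clusters lay closer to the end on 2L and 3L. There the nearest wider than 5 kb lay at 132 kb on 2L, with a width of 5.124 kb, and at 1212 kb on 3L. The nearest wider than 10 kb in that list lay at 1254 kb on 2L and 1771 kb on 3L. The nearest wider than 20 kb lay at 1990 kb on 2L and 2142 kb on 3L in both replicates. On 3R it lay at 485.8 kb in replicate 1 and at 1136 kb in replicate 2. The share of clusters wider than 5 kb over the 4 Mb was 29.1% and 30.5% on 2L against 33.9% and 33.6% in the rest, 32.3% and 31.1% on 3L against 37.3% and 35.7%, and 37.0% and 34.7% on 3R against 36.9% and 36.6%.

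Spacing changed most at the inner ends. In the innermost 1 Mb of 2L the median gap between neighbouring clusters was 31135.5 bases in replicate 1 and 38963 in replicate 2, against 2098 and 2970.5 bases in the next 3 Mb. On 3L the pair of gaps there had a median of 408664 and 408386 bases, against 3612 and 2548 bases. On 3R the medians were 5182 and 5124.5 bases, against 2077.5 and 1370 bases. The median gap was thus longer in the innermost 1 Mb than further out on all 3 arms. It was so by a small multiple on 3R and by more than an order of magnitude on 2L and 3L. On 3R the number of clusters per Mb was nearly equal, with 45 and 50 against 46.3 and 50.7 in the next 3 Mb. The longest 3R gap from 1 to 4 Mb was 404975 and 404516 bases, against 151671 and 151414 in the innermost 1 Mb.

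Close neighbours were frequent on 3R outside its innermost 1 Mb. From 1 to 4 Mb, 39.1% of gaps in both replicates were shorter than 1 kb, against 26.7% and 27.5% in the rest of the arm. In the innermost 1 Mb of 3R the share was 17.8% and 20.0% in the replicates, below that of the rest. The combined list did not show this, with 32.8% there against 32.9% in the rest. On 2L, 34.8% and 27.3% of the gaps from 1 to 4 Mb were that short, against 29.7% and 28.9% in the rest. On 3L they were 26.4% and 30.1%, against 29.2% and 29.0%. On these other arms the replicates differed in sign. Over the full 4 Mb the median gap was longer than in the rest of 2L by 414.8 ± 104.3 bases (SD, n = 2), while on 3L and 3R the spread between the libraries exceeded the difference (448.2 ± 769 and -499.2 ± 732 bases).

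**Figure D4:**
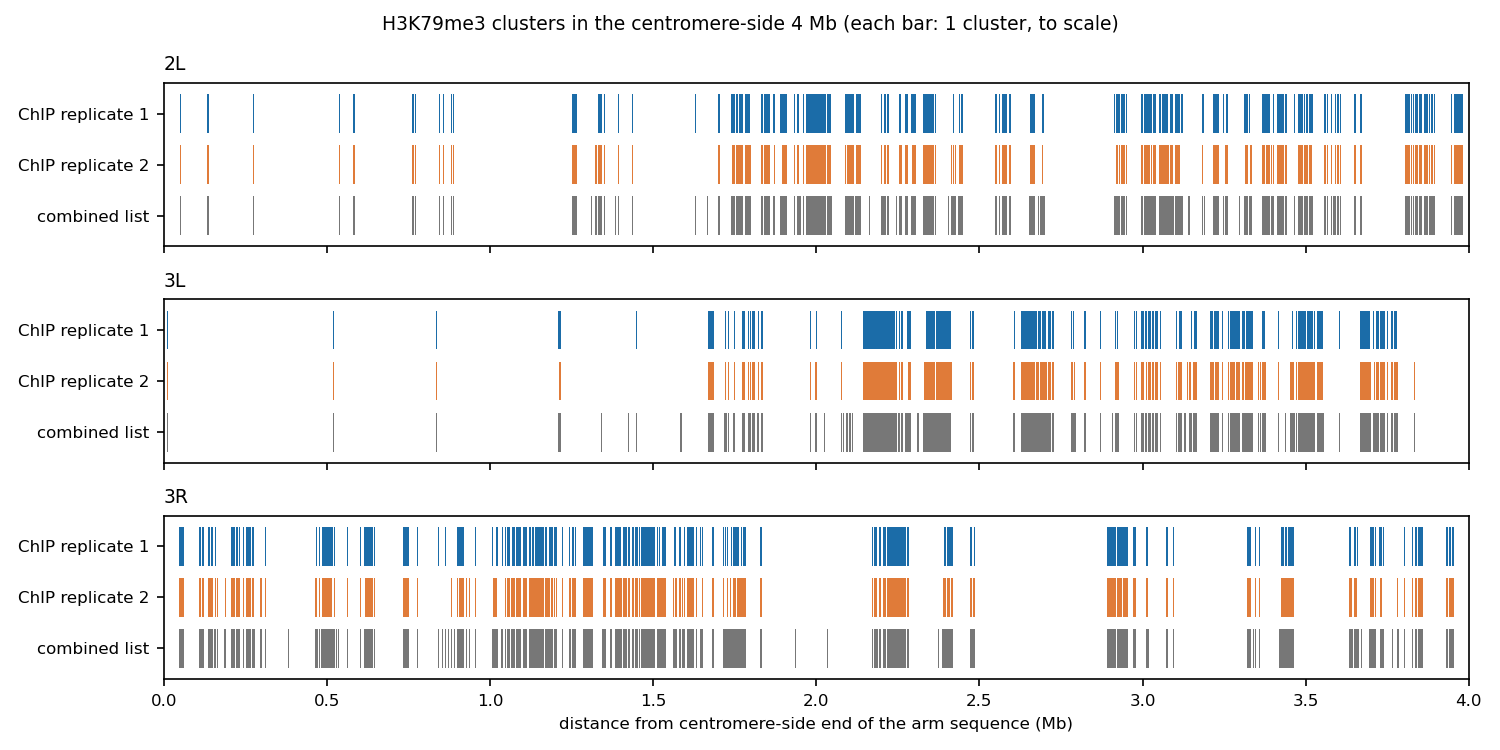
Map of every H3K79me3 cluster in the centromere-side 4 Mb of 2L, 3L and 3R, drawn to scale by distance from the end of the arm sequence (x axis, Mb), with 1 row for each ChIP replicate and 1 for the combined list. The few isolated clusters of the innermost 1 Mb of 2L and 3L recur in all 3 rows, apart from 1 short 2L cluster that replicate 2 lacks, and the longest empty stretches run through all rows.

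The few clusters in the innermost 1 Mb of 2L and 3L were nearly the same in both libraries. All 3 on 3L were shared. They lay at 24530471 to 24534209, 24021771 to 24024560 and 23708155 to 23710351 in replicate 1, and at 24530472 to 24533706, 24021616 to 24025091 and 23708147 to 23710224 in replicate 2. Their scores ranked low, at the 21.4, 9.99 and 12.3 percentiles of replicate 1 and at the 5.83, 32.3 and 8.84 percentiles of replicate 2. Between the first pair of them lay 505 kb with no cluster in any list, and between the next pair 311 kb.

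On 2L, 14 of the 15 replicate 1 clusters and all 14 replicate 2 clusters in the innermost 1 Mb overlapped a cluster of the other library. The exception was 1319 bases wide and ranked at the 2.17 percentile. The clusters measured up to 4467 bases in replicate 1 and 4619 bases in replicate 2. They came in small groups separated by long gaps: 3 singles within 250 kb of the end, a single at 272 kb, 3 that began between 537 and 582 kb, and the rest beginning between 760 and 887 kb. Ranks within this group of 2L varied between the libraries. The cluster at 22127530 to 22130582 stood at the 92.3 percentile of replicate 1, the highest of the group there, and its counterpart at 22127609 to 22130449 at the 75.02 percentile of replicate 2. The cluster nearest the end, at 22959099 to 22961669 in replicate 1, stood at the 58.2 percentile, and its counterpart in replicate 2 at the 32.1 percentile.

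On 3R the end of the arm opened with a wider cluster of higher rank. It ran from 46002 to 52582 in replicate 1 and from 46042 to 52594 in replicate 2, at the 80.5 and 79.8 percentiles. In the innermost 1 Mb of 3R the median score stood at the 56.2 and 53.8 percentiles of the lists, against 48.7 and 46.5 in the rest of the arm. On 2L it stood at the 36.8 and 33.3 percentiles, against 43.8 and 43.1 in the rest, and on 3L at the 12.3 and 8.84 percentiles, against 49.1 and 48.1. In the combined list the direction turned on 3R, with a median at the 42.0 percentile against 48.5 in the rest, and on 2L, with 56.05 against 44.8. On 3L it was 38.5 against 48.1. Over the whole 4 Mb the medians in the replicates were 38.7 and 38.2 on 2L, 38.1 and 41.3 on 3L, and 49.2 and 46.6 on 3R. Wider clusters have higher scores in these lists, with Spearman's rho across the clusters of the 4 Mb of an arm between 0.75 and 0.82 in the replicate lists and between 0.72 and 0.81 in the combined list, so rank and width are not separate measures.

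The combined list held no clusters of its own in the innermost 1 Mb of 2L and 3L. There, all 14 combined clusters on 2L and all 3 on 3L overlapped both replicates. From 1 to 2 Mb, 9 of 38 combined clusters on 2L (23.7%) and 8 of 29 on 3L (27.6%) overlapped neither replicate. In the innermost 1 Mb of 3R, 38 of 67 overlapped both replicates, and 18 overlapped neither replicate. Over the 4 Mb the share overlapping neither replicate was 19.7% on 2L, 20.1% on 3L and 23.0% on 3R, against 20.7%, 20.9% and 19.6% in the rest of these arms. Those clusters were short, with a median of 1318 bases on 2L, 1296 on 3L and 1340 on 3R, against 5828, 5122 and 5617 bases for clusters that overlapped both.

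Replicates overlapped to a like extent in the window and elsewhere. The bases covered in both libraries made up 85.2% of the bases covered in either, against 84.7% in the rest of the 3 arms. Of replicate 1 clusters, 457 of 486 (94.0%) shared 1 base or more with a replicate 2 cluster, against 3010 of 3267 (92.1%) in the rest. Of replicate 2 clusters, 452 of 504 (89.7%) overlapped one of replicate 1, against 2995 of 3383 (88.5%). The lowest share was that of replicate 2 clusters from 3 to 4 Mb on 3L, where 48 of 63 (76.2%) were shared, and the others there had a median width of 1541 bases. Borders of clusters paired by their largest mutual overlap differed by a median of 158.5 bases on 2L, 153.5 on 3L and 134 on 3R, against 165.5, 142 and 151 bases in the rest of those arms.

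The widest domain of the window lay outside the sparse stretch on both 2L and 3L. On 2L the widest combined cluster ran over 40.8 kb from 20980528 to 21021364, 1990 kb from the end. Each replicate had a single cluster there, which filled 98.8% of it in replicate 1 and 99.8% in replicate 2. The next ran over 33.6 kb from 20650001 to 20683626 and held 2 clusters in replicate 1 and 3 in replicate 2. The next after it, 26.1 kb from 19931703 to 19957818, lay 3054 kb from the end and was covered to 86.8% and 91.5%.

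On 3L the widest, 106 kb from 22295523 to 22401372, began 2142 kb from the end and held 2 clusters in replicate 1 and 1 in replicate 2. It lies within the step from 2000 to 2250 kb, the first dense step of 3L, and makes up most of the coverage there. Inside the domain, replicate clusters covered 42.1% and 42.3% of that step, and all other clusters of the step covered 2.88% and 3.83%. A second domain of 79.8 kb ran from 22129213 to 22209034, covered to 92.5% and 97.5%, in 7 and 5 clusters. The next, 43.1 kb from 21873718 to 21916805, was a single cluster in each replicate. The 3 lay between 2142 and 2670 kb from the end.

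On 3R the widest combined clusters were pieced together from several replicate clusters. The widest, 50.2 kb from 1735281 to 1785481, held 9 clusters in each replicate and was covered to 81.7% and 85.3%. The next, 40.1 kb from 3425251 to 3465361, held 4 and 7 clusters. The last of the 3, 31.1 kb from 485762 to 516907, lay 486 kb from the end, at a distance where 2L and 3L had no cluster wider than 5 kb in either replicate.

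By score, 3R had a cluster of very high rank close to its end, though high ranks were not more frequent there. In its innermost 1 Mb, 3 of 45 clusters (6.67%) and 3 of 50 (6.00%) stood in the top 10% of their list. In the rest of 3R the shares were 10.6% and 10.3%. Among combined clusters seen in both replicates, the highest score of 3R belonged to a cluster of 11.1 kb from 255754 to 266875. It lay 256 kb from the end, at the 98.4 and 98.9 percentiles of replicates 1 and 2. It was followed by one of 29.9 kb from 2243780 to 2273686 (98.1 and 97.4 percentiles) and one of 14.7 kb from 1405868 to 1420530 (97.8 and 97.6). On 3L the 3 highest lay at 21669501 to 21675438, 21509629 to 21515066 and 20799784 to 20816363, none closer to the end than 2868 kb. On 2L they lay at 20730491 to 20740335, 19048650 to 19057024 and 19502900 to 19509101, none closer than 2271 kb. The clusters at these places ranked between the 93.2 and 99.8 percentiles of the replicate lists.

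Stretches of over 100 kb with no cluster in any list took up 1332 kb of the window on 2L, 1771 kb on 3L and 1024 kb on 3R. There were 6, 7 and 5 of them, or 1.5, 1.75 and 1.25 per Mb, against 1.26, 1.07 and 1.00 per Mb in the rest of these arms. On 2L the longest ran over 362 kb from 21759789 to 22121344, and the next over 262 kb from 22474316 to 22736532. The last of the 3 longest on 2L, 214 kb from 20097570 to 20311390, lay in its outer part, 2700 kb from the end. On 3L all 3 of the longest lay within 1209 kb of the end. On 3R none lay in the innermost 1 Mb, where the longest stretch without a cluster in any list measured 84.2 kb. This rests on a combined cluster of 1491 bases that neither replicate has: within the replicate lists the longest gap there was 151671 and 151414 bases. The longest on 3R, 404 kb from 2485850 to 2890241, began 2486 kb from the end.

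The heterochromatic sequences assembled apart from these arms were also sparse. Clusters covered 1.82% of 2LHet in replicate 1 and 1.99% in replicate 2, with 3 clusters in each. They covered 0.879% of 3LHet in replicate 1, in 11 clusters, and 0.679% in replicate 2, in 8 clusters. The innermost 1 Mb of 3L held 0.873% and 0.879%. In the combined list 3LHet held 1.37%, against 1.07% there. On 3RHet it was 0.331% and 0.262%, against 21.9% and 21.7% in the innermost 1 Mb of 3R. How well reads can be placed next to the ends and in these sequences, and the coverage of the input there, were not tested.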

How the data were processed

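The authors deposited lists of regions of significant enrichment on FlyBase release 5, per the file headers: 1 list for each of 2 ChIP libraries, whose inputs the labels name, and 1 for the replicate set. The score of each region was used as deposited by the authors, and only for ranks within a list and for a filter at its median. The submitters' processing notes name Bowtie 0.12.7, with no step attached. How regions were called, at which threshold, and how the replicate set was made is not stated in the headers or labels. Depth is unknown. No list of the input libraries was used.

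Distances were counted from the arm end that faces the centromere in the usual orientation. Coverage was the share of bases inside clusters in steps of 250 kb. Clusters and gaps were placed by their midpoints, and the empty stretch between the arm end and the first cluster was not counted as a gap in medians. Values are given per library with mean and SD, and no p-value was computed. Regions named per arm were the 3 widest combined clusters, the 3 highest scores among those in both replicates, the 3 longest empty stretches, the cluster nearest the end, and the extreme steps; further regions were named after their values had been seen. The members and measures were chosen with earlier results of these data known. All 48 simulated steps with set coverage, number and width were recovered. The gene table given is of release 6, so no genes were assigned and coordinates were not converted. The software was Python 3.11.15 with matplotlib 3.10.9 for figures and scipy 1.17.1, pandas 2.3.3 and numpy 2.4.6 for values.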

Additional observations from a re-analysis of the deposited data

Results flagged for a closer look

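The arms differed in which side of the centromere-side 4 Mb was denser. The covered share of the inner 2 Mb minus that of the outer 2 Mb was positive in both libraries on 3R (14.9 and 15.3 points) and negative in both on 2L (-20.4 and -21.3 points) and on 3L (-29.4 and -31.2 points). As a mean of the replicates, the difference on 3R exceeded that on 2L by 36.0 points and that on 3L by 45.4 points. The contrast was chosen after the values had been seen, and the difference between arms was not tested.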

How the results depend on the processing

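No paired analysis was possible because no list of the inputs, which share replicate numbers with the ChIP libraries, was used. The lower coverage of the 4 Mb held on all 3 arms with clusters at or above the median score (-4.95 points on 2L, -7.83 on 3L, -5.01 on 3R), with clusters closer than 1000 bases joined (-6.55 on 2L, -10.2 on 3L) and in the combined list (-8.31, -12.2 and -7.05). Over 2 Mb it was -17.2 points on 2L and -25.6 on 3L but 2.41 on 3R, where the sign turned. As a mean of the replicates, the innermost 1 Mb minus the next 3 Mb was -22.9, -24.9 and -4.32 points on 2L, 3L and 3R. It was -16.9, -18.9 and -2.17 points at or above the median score, and -23.5 on 2L and -4.79 on 3R with clusters joined. In the combined list it was -28.2, -29.5 and -3.27, and with 0.5 Mb in place of 1 Mb it was -21.3, -21.6 and -2.27. Clusters per Mb, window minus rest, were -4.96, -11.7 and -2.52 at or above the median score, -6.04, -13.0 and -7.53 joined, -11.5 on 2L and -20.3 on 3L in the combined list, and -26.5, -38.9 and 12.9 over 2 Mb, the last with the sign turned. Median width, window minus rest, was -466 bases on 3L at or above the median score, -656 on 3L and 988.8 on 3R with clusters joined, and -521.5 on 2L and -670.2 on 3L over 2 Mb. Median gap, window minus rest, was 906.8, 3962 and -2493 bases at or above the median score, 74.5 on 2L and 307.5 on 3R joined, 721 on 2L in the combined list, and 1600.2 on 2L and 6146 on 3L over 2 Mb. The cause of these shifts was not tested. Where an arm is left out of a setting above, its value differed from the main value by less than the SD of the replicates. Leaving out either replicate kept the sign of coverage and of number on every arm, while the median width ran from -385.5 to 171 bases on 2L and from -418 to 271.5 on 3R, and the median gap from -95.5 to 992 on 3L and from -1017 to 18.5 on 3R. Clusters shared by both libraries were 94.4%, 89.8% and 91.0% of clusters on 2L, 3L and 3R, and 78.99%, 80.99% and 77.4% when the overlap had to be at least 50% of both. At or above the median score the share on 2L was 90.3%. The first step covered like the rest of the arm, with other step lengths tried after the data had been seen, began in steps of 100 kb at 1700 kb on 2L and 200 kb on 3R in both replicates, but on 3L at 2100 kb in replicate 1 and 1700 kb in replicate 2. In steps of 500 kb it began on 2L at 1500 kb in replicate 1 and 2000 kb in replicate 2, and in both replicates at 2000 kb on 3L and 1000 kb on 3R. The lists carry no read counts, so depth sets an unknown limit on which weak regions were called.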
